A study of Mus musculus with 16 samples.

Results

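Amino acid stress and unfolded protein genes were followed as a list of 34 genes, chosen by gene symbol, in MEC1 cells, an established mouse epicardial cell line. All 34 were found among the 46348 genes of the deposited table, and all 34 passed the filter on low counts that left 15494 genes to test. The list holds 26 genes of the type controlled by the transcription factor ATF4, called ATF4-type below, and 8 endoplasmic reticulum (ER) chaperone and unfolded protein genes, called ER genes. By role, the ATF4-type genes are 10 enzymes of amino acid and one-carbon metabolism, 4 amino acid transporters, 4 aminoacyl-tRNA synthetases and 8 stress regulators and effectors.

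When amino acids run short, or when unfolded proteins build up in the ER, stress kinases phosphorylate the initiation factor eIF2, which slows most translation and favours that of ATF4. ATF4 then turns on genes that make, import and recycle amino acids, charge tRNAs and feed one-carbon metabolism. The unfolded protein response also works through ATF6 and the spliced form of XBP1, which raise the chaperones, folding enzymes and degradation factors of the ER. In cultured fibroblasts, TGF-beta is known to raise ATF4 and the serine and glycine pathway. ATF4 is set largely by translation and XBP1 by splicing, so the gene-level RNA counts used here measure the activity of neither.

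Epicardial cells form the outer mesothelial covering of the heart, and TGF-beta drives cultured epicardial cells towards a mesenchymal state. The cells received siRNA against PRMT1, a protein arginine methyltransferase, together with siRNA against p53, or PRMT1 siRNA alone, or p53 siRNA alone, or control siRNA. Each siRNA group was sequenced with TGF-beta and without it, which gave 8 groups of 2 poly(A)-enriched libraries. The study's title sets PRMT1 upstream of Mdm4 and p53 in epicardial invasion, and the comparisons ask what TGF-beta and each siRNA did to these genes. The siRNA amounts, TGF-beta dose and treatment times are not given in the sources used here. All cells come from 1 line and all received an siRNA. The labels do not say whether the 2 libraries of a group came from separate cultures, so p-values measure the spread between these libraries, which may be technical.

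Library totals were 19617874 to 30759317 counts. Of 11 epicardial and mesothelial markers, all 11 were tested. Their summed level was 343 to 474 CPM (counts scaled to library size) in the 8 libraries with TGF-beta. In the 8 without it the sum was 1690 to 2500 CPM. The part of this difference in the TGF-beta responses below was not tested. The markers were uneven in level: Upk3b reached 696 CPM and Lrrn4 654 CPM, while Tcf21 was at most 13 CPM and Aldh1a2 at most 1.14 CPM. Of 8 cardiomyocyte markers 1 was tested, Tnnt2, and the summed level was 51.1 to 140 CPM with TGF-beta, against 2.14 to 23.9 CPM without it, with Myh6, Myh7, Actn2 and Myl2 each under 0.1 CPM in every library. Of 8 markers each of endothelial and haematopoietic cells, 3 and 2 were tested; the sums were at most 9.57 and 4.2 CPM, and Tie1 and Hbb-bs were at 0 in all 16 libraries. The siRNA targets were lower at the RNA level. In PRMT1 siRNA cells, Prmt1 stood at 43.5% of control where TGF-beta was given and at 48.1% where it was not. Trp53, the p53 gene, stood at 44.9% and 40.2% of control in p53 siRNA cells, in the same order of treatment, and at 60.8% and 65.5% in cells with both siRNAs. Replicate 2 of p53 siRNA with TGF-beta stands apart from the rest: the log2 difference between the partners, as a root mean square over the 34 genes, was 0.435 in its group, against 0.0815 to 0.152 in the other 7 groups. Log2 changes of members that use this library are given from the fit of all 16 libraries and from a fit of the other 15, called with 15 libraries; that fit tested 16103 genes and, with less spread, called more of them in most comparisons. Cdkn1a, a target of p53, had 86.1 and 79.5 CPM with PRMT1 siRNA, 9.03 and 9.20 CPM with p53 siRNA and 29 and 27.1 CPM with control siRNA, all without TGF-beta.

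Levels are CPM scaled by edgeR's TMM factors. A value such as 0.87 ± 0.11 after a gene is its log2 change ± SE from edgeR's quasi-likelihood fit. The fit has n = 2 libraries per group, and the change is positive where the TGF-beta or siRNA group is higher. With 15 libraries, p53 siRNA with TGF-beta has replicate 1 alone. The SE of values with this group then rests on the spread in the other groups. A gene was called higher or lower where its p, adjusted over the 15494 genes by Benjamini-Hochberg, was under 0.05. All adjusted p-values are from edgeR. Statements that libraries overlap or do not only describe the values: with 2 libraries per group, non-overlap is common without a difference, and it was not counted over all genes. Cbs, which makes cystathionine from serine and homocysteine, had 0 to 19 counts per library (0 and 0 with p53 siRNA and TGF-beta), so its counts are given and no fold. Ddit3 (chr10:127290774-127296289, plus strand) overlaps the end of Mars (chr10:127296221-127311787, minus strand) in the table, and since the strand setting of the counting is not given in the sources used here, reads in the overlap cannot be assigned with certainty to either.

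Promoter sequences are shown for motifs that the ATF4 and ATF6 branches are known to use. RefSeq promoter entries of GRCm38.p6, the assembly also called mm10, were matched by symbol for 22 of the 26 ATF4-type genes (Cth, Slc7a5, Nars and Wars had no entry) and for all 8 ER genes, and the 250 bases before each start were searched on both strands. The first motif was TTNCATCA, the core of the composite element that ATF4 binds together with a C/EBP partner; read from the other strand it begins with TGATG. It was in 7 of the 22 ATF4-type genes (31.8%), in 1 of the 8 ER genes (12.5%) and in 3.91% of all 27025 genes with an entry. The second was the ER stress element, CCAAT and CCACG with 9 bases between them, which is bound by NF-Y and ATF6. It was in 0 of the 22 ATF4-type genes, in 3 of the 8 ER genes (37.5%) and in 0.13% of all genes. No member held both motifs. The windows below are written 5′ to 3′ on the gene's strand, with the motif in capitals; they come from 6 ATF4-type genes that hold the first motif (2 enzymes, 1 transporter, 1 synthetase and 2 stress genes), so that the shared core can be read across roles.
Asns, chr6:7693214-7693243, minus strand: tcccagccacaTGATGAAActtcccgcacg
Pycr1, chr11:120643820-120643875, minus strand: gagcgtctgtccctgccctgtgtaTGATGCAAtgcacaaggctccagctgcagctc
Slc7a11, chr3:50443629-50443703, minus strand: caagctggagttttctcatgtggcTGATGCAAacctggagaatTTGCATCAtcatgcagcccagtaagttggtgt
Gars, chr6:55037947-55038000, plus strand: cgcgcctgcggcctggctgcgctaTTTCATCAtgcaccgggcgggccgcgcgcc
Nupr1, chr7:126625562-126625591, minus strand: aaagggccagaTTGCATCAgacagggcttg
Chac1, chr2:119351025-119351080, plus strand: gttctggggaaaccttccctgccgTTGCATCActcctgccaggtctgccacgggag
The Slc7a11 window holds the motif in the reverse and then in the forward direction, and the Asns and Pycr1 windows hold it in reverse. Vldlr, at a second start, and the ER gene Herpud1 also hold it. The ER stress element is shown next for the 3 ER chaperone genes that hold it, with its 2 ends in capitals.
Hspa5, chr2:34772020-34772048, plus strand: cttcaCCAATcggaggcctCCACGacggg
Hsp90b1, chr10:86705614-86705680, minus strand: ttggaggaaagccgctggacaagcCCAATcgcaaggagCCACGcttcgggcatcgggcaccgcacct
Hsp90b1, chr10:86705528-86705556, minus strand: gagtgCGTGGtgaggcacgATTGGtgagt
Calr, chr8:84847051-84847117, minus strand: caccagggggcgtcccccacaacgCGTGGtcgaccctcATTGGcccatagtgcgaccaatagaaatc
The second Hsp90b1 window and the Calr window hold the element in reverse. The windows of Asns, Nupr1 and Hspa5 lie before the RefSeq start but inside the gene span that the deposited table uses. A match describes letters in this window and is not evidence of binding. Of the 7 ATF4-type genes with TTNCATCA, 6 were higher with TGF-beta under all 4 siRNA treatments, as were 8 of the 15 with an entry and no match and 3 of the 4 with no entry, against 9% of all genes; of the 3 ER genes with the ER stress element, none was. With 15 libraries these counts were 6, 10, 3 and 0, against 12.1% of all genes.

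In cells with control siRNA and no TGF-beta, 3 ER chaperones were the most abundant members per length. Calr, a calcium-binding lectin chaperone (chr8:84841850-84846935, minus strand), stood at 579 and 541 CPM per kilobase of transcript, Hsp90b1, the ER member of the HSP90 family, at 450 and 442, and Hspa5, the HSP70 chaperone also called BiP, at 280 and 265. The 3 pairs of libraries did not overlap. Phgdh followed at 190 and 167 and Gars at 158 and 145 CPM per kilobase, which did not overlap each other. Pdia4 (129 and 127), Atf4 (132 and 115) and Psat1 (124 and 121) came next, and the Atf4 libraries lay on both sides of the Pdia4 and Psat1 ones. At the other end were Vldlr (5.8 and 5.56), Cth (2.34 and 2.56), Slc7a11 (1.94 and 2.63) and Cbs (0.0426 and 0.0466 CPM per kilobase), of which Cth and Slc7a11 overlapped. The other 22 members had means of 7.93 to 106 CPM per kilobase.

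TGF-beta raised most ATF4-type genes under each siRNA, and 3 or 4 of the 8 ER genes were called in each response. With control siRNA, 22 of the 26 ATF4-type genes were higher and 0 lower, and of the 8 ER genes 2 were higher and 1 lower. Over all 15494 genes 17.8% were higher and 20.6% lower. The median log2 change was 0.56 for the ATF4-type genes, 0.00 for the ER genes and -0.01 for all genes. With PRMT1 siRNA, 19 ATF4-type genes were higher and 0 lower, and 2 ER genes were higher and 1 lower, against 16.3% and 16.2% of all genes. With p53 siRNA, 22 ATF4-type genes were higher and 1 lower, and 4 ER genes were higher and 0 lower, against 23.3% and 22% of all genes. With both siRNAs, 20 ATF4-type genes were higher and 1 lower, and 1 ER gene was higher and 2 lower, against 15% and 16.3% of all genes. The medians of the ATF4-type genes in these 3 responses were 0.56, 1.01 and 0.58, those of the ER genes -0.08, 0.22 and -0.10, and those of all genes -0.01, 0.02 and -0.02. With Cbs at the bound that 3 counts over the group allow, the median with p53 siRNA was also 1.01. Cbs lies below the median either way, so this could not have come out otherwise. In bulk RNA, fewer cells that express a gene and less RNA per cell cannot be told apart.

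**Figure D1:**
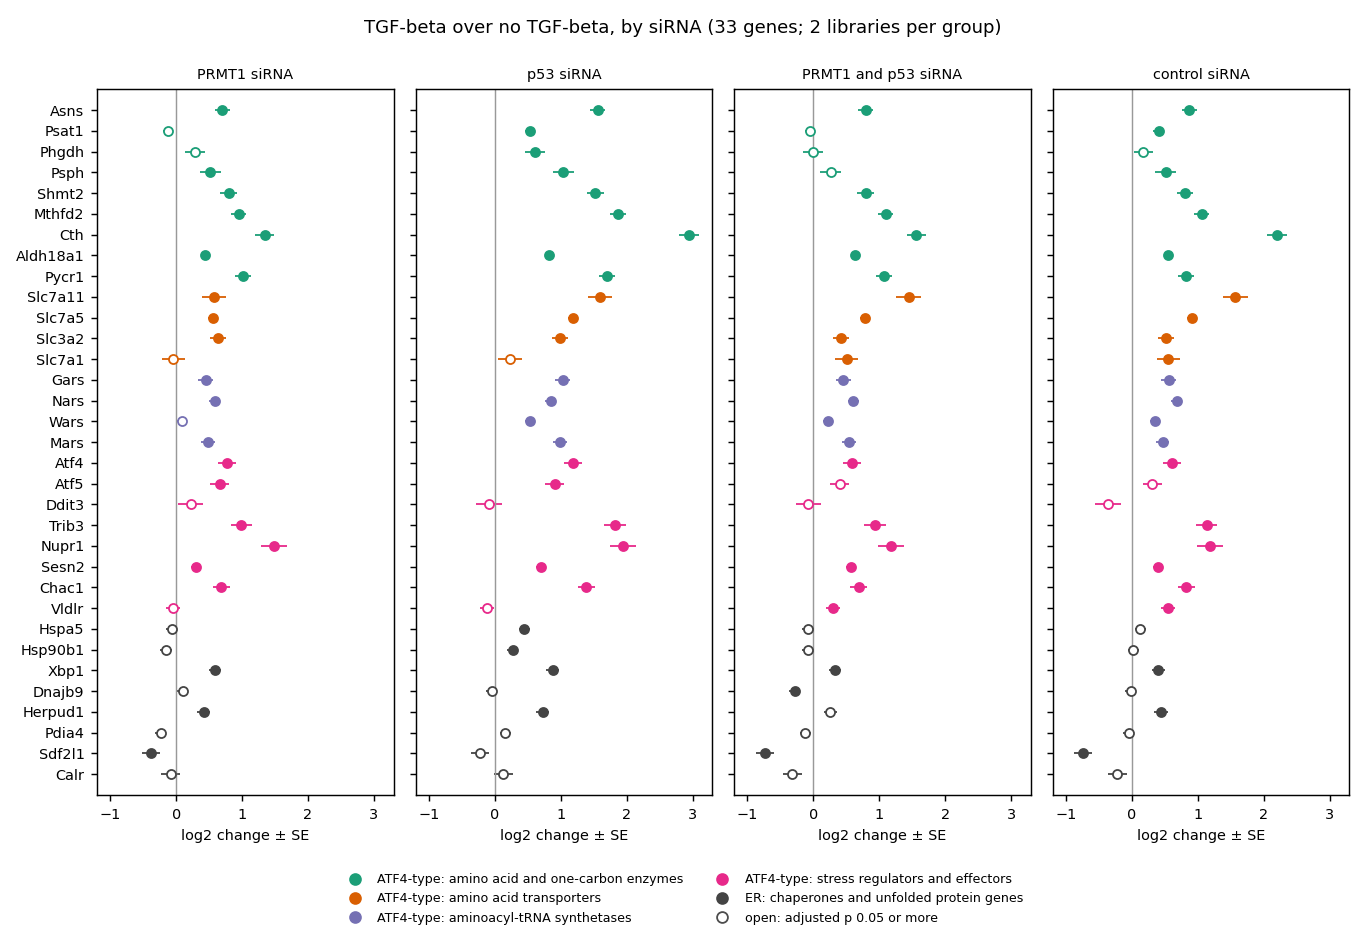
Log2 change with TGF-beta over no TGF-beta in edgeR (points, bars are SE, 2 libraries per group) for 33 of the 34 genes, with Cbs left out for its low counts, in 4 panels by siRNA. Filled points have an adjusted p under 0.05; the enzymes, transporters and synthetases lie mostly right of 0, and the 8 ER genes in grey lie on both sides of it.

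The 4 responses use separate libraries. In all 4, 17 of the 26 ATF4-type genes and 1 of the 8 ER genes, Xbp1, were higher, against 9% of all genes, and none of the 34 was lower in all 4, against 9.93% of all genes. With 15 libraries, 19 ATF4-type genes and 2 ER genes were higher in all 4 and 1 ER gene, Sdf2l1, was lower in all 4, against 12.1% and 12.7% of all genes in that fit. Of the 17, 12 kept all 4 calls whichever library was left out, and Atf4, Gars, Sesn2, Slc3a2 and Slc7a11 did not. By role, the 17 were 6 of 10 enzymes, 3 of 4 transporters, 3 of 4 synthetases and 5 of 8 stress genes. With p53 siRNA the fit of 15 libraries gave a median of 0.79 for the ATF4-type genes and 0.10 for the ER genes, with 23 ATF4-type genes higher and 2 lower, and 3 ER genes higher and 1 lower, against 22.7% of all genes higher and 23.5% lower in that fit.

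Among the enzymes, Cth, which makes cysteine from cystathionine (chr3:157894248-157925078, minus strand), had the largest log2 change of the 33 genes in the responses with control siRNA, p53 siRNA and both siRNAs; with PRMT1 siRNA, Nupr1 had a larger one. With control siRNA, Cth had 19.4 and 21.5 CPM with TGF-beta, against 4.25 and 4.64 CPM without it (2.20 ± 0.15, adjusted p = 3.33e-07). With PRMT1 siRNA, Cth had 12 and 13.9 CPM with TGF-beta and 4.84 and 5.44 CPM without it (1.34 ± 0.14, adjusted p = 2.32e-05). Both siRNAs together gave 13.9 and 12.3 CPM with TGF-beta, against 4.39 and 4.48 CPM without it (1.56 ± 0.15, adjusted p = 6.67e-06). The libraries with and without TGF-beta did not overlap in any of these groups. In cells with p53 siRNA it had 21.9 and 28.3 CPM with TGF-beta, against 3.04 and 3.44 CPM without it (2.95 ± 0.15, adjusted p = 3.01e-08; 2.75 ± 0.15 with 15 libraries). These are ratios between low levels. Cbs, the step before Cth, was called lower with p53 siRNA, with 0 and 0 counts with TGF-beta, against 7 and 5 counts without it, and with both siRNAs, with 4 and 4 counts with TGF-beta, against 19 and 18 counts without it. It was not called with PRMT1 siRNA (3 and 10 counts with TGF-beta, against 12 and 13 without it) or with control siRNA (2 and 1, against 6 and 6 without it).

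Mthfd2 (chr6:83305691-83325909, minus strand), the mitochondrial folate dehydrogenase, and Shmt2, which feeds it with one-carbon units from serine, rose in all 4 responses. Mthfd2 had 231 and 232 CPM with TGF-beta, against 115 and 107 CPM without it, with control siRNA (1.06 ± 0.11, adjusted p = 1.86e-05). It had 178 and 178 CPM with TGF-beta and 92.2 and 92.1 CPM without it with PRMT1 siRNA (0.95 ± 0.11, adjusted p = 6.2e-05). These pairs of groups lie far apart compared with the gaps within them. Under p53 siRNA it had 224 and 296 CPM with TGF-beta, against 65.9 and 76.6 CPM without it (1.87 ± 0.11, adjusted p = 1.57e-07; 1.65 ± 0.08 with 15 libraries). With both siRNAs the values were 169 and 162 CPM with TGF-beta and 79.3 and 75.6 CPM without it (1.10 ± 0.11, adjusted p = 1.93e-05). The treated libraries were higher in every group, and the partners lay close together except with p53 siRNA and TGF-beta. Shmt2 changed by 0.80 ± 0.13 with control siRNA, 0.79 ± 0.13 with PRMT1 siRNA, 0.79 ± 0.13 with both siRNAs and 1.53 ± 0.13 with p53 siRNA (1.27 ± 0.08 with 15 libraries).

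Asns, which makes asparagine (chr6:7675169-7693255, minus strand), had 312 and 299.8 CPM with TGF-beta, against 175 and 160.5 CPM without it, with control siRNA (0.87 ± 0.11, adjusted p = 9.08e-05). Under PRMT1 siRNA it had 207 and 203 CPM with TGF-beta and 129 and 123 CPM without it (0.70 ± 0.11, adjusted p = 0.000641). Under both siRNAs it had 203 and 194 CPM with TGF-beta, against 119 and 109.7 CPM without it (0.80 ± 0.11, adjusted p = 0.000232). The treated pair was the higher one in each. With p53 siRNA it had 293 and 391 CPM with TGF-beta, against 112 and 119 CPM without it (1.56 ± 0.11, adjusted p = 6.09e-07; 1.34 ± 0.08 with 15 libraries). Its libraries with TGF-beta lay above those without it in every group.

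Of the proline pathway, Aldh18a1 and Pycr1, its entry and last enzymes, were higher in all 4 responses. Aldh18a1 had 304 and 294 CPM with TGF-beta, against 206 and 202 CPM without it, with control siRNA (0.55 ± 0.06, adjusted p = 2.95e-05), and its changes ran from 0.44 ± 0.06 with PRMT1 siRNA to 0.82 ± 0.06 with p53 siRNA (0.78 ± 0.06 with 15 libraries). Pycr1 had 32.3 and 33.1 CPM with TGF-beta, against 16.5 and 15.9 CPM without it, with PRMT1 siRNA (1.01 ± 0.12, adjusted p = 6.43e-05). In cells with p53 siRNA it had 44.6 and 58.7 CPM with TGF-beta and 14.4 and 17.2 CPM without it (1.70 ± 0.12; 1.49 ± 0.10 with 15 libraries). The 3 enzymes of serine synthesis were all called higher with p53 siRNA, and not all of them in the other responses. Psat1, the second step, was called higher with control siRNA (0.41 ± 0.08) and p53 siRNA (0.53 ± 0.08; 0.41 ± 0.06 with 15 libraries) but not with PRMT1 siRNA (-0.12 ± 0.08, adjusted p = 0.259) or both siRNAs (-0.05 ± 0.08, adjusted p = 0.7). Phgdh, the first step, was called with 16 libraries only with p53 siRNA (0.61 ± 0.15; 0.29 ± 0.10 with 15 libraries), and Psph, the last step, in 3 of the 4 responses, at 1.04 ± 0.16 with p53 siRNA (0.69 ± 0.10 with 15 libraries), and not with both siRNAs (0.26 ± 0.16, adjusted p = 0.244; 0.26 ± 0.08, adjusted p = 0.0167 with 15 libraries). The Psph calls with control siRNA (0.51 ± 0.16) and PRMT1 siRNA (0.52 ± 0.16) were lost whichever library was left out, with adjusted p up to 0.17 and 0.167.

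The transporters Slc7a11, Slc7a5 and Slc3a2 were higher in all 4 responses. Slc7a5, the light chain of the large neutral amino acid transporter (chr8:121881150-121907695, minus strand), had 348 and 307 CPM with TGF-beta, against 174 and 175 CPM without it, with control siRNA (0.91 ± 0.08, adjusted p = 2.01e-06). It had 202 and 199 CPM with TGF-beta and 143 and 131 CPM without it with PRMT1 siRNA (0.55 ± 0.08, adjusted p = 0.000175). With both siRNAs it had 186 and 188 CPM with TGF-beta, against 108 and 109 CPM without it (0.78 ± 0.08, adjusted p = 9.43e-06). No treated library overlapped an untreated one of the same siRNA. Under p53 siRNA it had 276 and 266 CPM with TGF-beta, against 116 and 123 CPM without it (1.18 ± 0.08, adjusted p = 1.93e-07; 1.21 ± 0.08 with 15 libraries), and here the partner libraries lay close together. Slc3a2 encodes the heavy chain that Slc7a5 and Slc7a11 share, and its changes ran from 0.42 ± 0.12 with both siRNAs to 0.99 ± 0.12 with p53 siRNA (0.73 ± 0.07 with 15 libraries). Its call with both siRNAs was lost whichever library was left out (adjusted p up to 0.129).

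Slc7a11, the cystine and glutamate exchanger (chr3:49892526-50443615, minus strand), had 58.3 and 66.8 CPM with TGF-beta, against 17.9 and 24.2 CPM without it, with control siRNA (1.57 ± 0.19, adjusted p = 4.02e-05). Both siRNAs together gave 34.9 and 37.2 CPM with TGF-beta and 12.1 and 14.4 CPM without it (1.45 ± 0.19, adjusted p = 0.000114). The groups did not overlap in either response. The change was 0.57 ± 0.19, adjusted p = 0.0348, with PRMT1 siRNA and 1.60 ± 0.19 with p53 siRNA (1.87 ± 0.14 with 15 libraries). The call with PRMT1 siRNA was lost whichever library was left out (adjusted p up to 0.181). Slc7a1, a cationic amino acid transporter, was called higher with control siRNA (0.55 ± 0.17, adjusted p = 0.0265) and with both siRNAs (0.51 ± 0.18, adjusted p = 0.0465) only, and with p53 siRNA its change was 0.23 ± 0.18 with 16 libraries and 0.54 ± 0.10 with 15, where it was called. Leaving out 1 library ended its call with both siRNAs in 4 of 4 cases (adjusted p up to 0.216) and kept it with control siRNA in 1 of 4.

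All 4 aminoacyl-tRNA synthetases, which load amino acids onto tRNAs, were called higher with TGF-beta under control siRNA, p53 siRNA and both siRNAs, and 3 of 4 under PRMT1 siRNA. Nars, for asparagine, had 454 and 481 CPM with TGF-beta, against 289 and 294 CPM without it, with control siRNA (0.68 ± 0.08, adjusted p = 4.41e-05). With PRMT1 siRNA it had 389 and 400.2 CPM with TGF-beta and 259.8 and 266 CPM without it (0.59 ± 0.08, adjusted p = 0.000203). The treated libraries were all above the untreated ones. Gars, for glycine, changed by 0.56 ± 0.12 with control siRNA and by 1.03 ± 0.12 with p53 siRNA (0.79 ± 0.07 with 15 libraries), and Mars, for methionine, by 0.47 ± 0.10 and 0.99 ± 0.10 (0.79 ± 0.07 with 15 libraries). Wars, for tryptophan, had the smallest changes of the 4, 0.35 ± 0.07 with control siRNA and 0.09 ± 0.07 with PRMT1 siRNA, where it was not called (adjusted p = 0.375). The calls of Gars with PRMT1 siRNA and of Wars with both siRNAs were lost whichever library was left out, with adjusted p up to 0.0824 and 0.181.

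Of the stress genes, Atf4, the regulator itself (chr15:80255184-80257541, plus strand), had 379 and 381 CPM with TGF-beta, against 267 and 233 CPM without it, with control siRNA (0.60 ± 0.14, adjusted p = 0.00397). It had 427 and 432 CPM with TGF-beta and 253 and 250.1 CPM without it with PRMT1 siRNA (0.77 ± 0.14, adjusted p = 0.00107). Under both siRNAs it had 375 and 346 CPM with TGF-beta, against 255 and 224 CPM without it (0.59 ± 0.14, adjusted p = 0.00606). In these 3 responses the partners lay closer to each other than to the other pair. With p53 siRNA it had 370.0 and 515 CPM with TGF-beta, against 184 and 205 CPM without it (1.19 ± 0.14, adjusted p = 2.48e-05; 0.93 ± 0.10 with 15 libraries). Every library with TGF-beta was above every library without it. The Atf4 call was lost with control siRNA when replicate 2 without TGF-beta was left out (0.50, adjusted p = 0.0601). With both siRNAs it was lost without replicate 2 of the untreated pair (0.50, adjusted p = 0.063) and without replicate 1 of the treated pair (0.54, adjusted p = 0.0543). Nupr1, a small stress-induced chromatin protein, had 48 and 51.2 CPM with TGF-beta, against 15.7 and 19.7 CPM without it, with PRMT1 siRNA (1.49 ± 0.20, adjusted p = 0.000145).

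Trib3, a pseudokinase that restrains ATF4, changed by 1.14 ± 0.16 with control siRNA, 0.99 ± 0.16 with PRMT1 siRNA, 0.94 ± 0.16 with both and 1.83 ± 0.16 with p53 siRNA (1.52 ± 0.12 with 15 libraries). Chac1, which breaks down glutathione, and Sesn2, a leucine sensor that restrains mTORC1, were also higher in all 4, at 0.82 ± 0.13 and 0.39 ± 0.08 with control siRNA. Atf5, a bZIP factor downstream of ATF4, was called higher with PRMT1 siRNA (0.66 ± 0.15) and p53 siRNA (0.91 ± 0.15; 0.57 ± 0.07 with 15 libraries) and not with control siRNA (0.31 ± 0.15, adjusted p = 0.122). Vldlr, a lipoprotein receptor, was higher with control siRNA (0.55 ± 0.10) and with both siRNAs (0.30 ± 0.10); with PRMT1 siRNA the change was -0.05 ± 0.10 (adjusted p = 0.726). The Vldlr call with both siRNAs was lost whichever library was left out (adjusted p up to 0.204) and in 4 of the 6 other alternatives, with changes of 0.13 to 0.36.

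Ddit3, which encodes CHOP, the factor tied to cell death in lasting ER stress, was called in none of the 4 responses. It had 41.7 and 46.9 CPM with TGF-beta, against 61.3 and 52.7 CPM without it, with control siRNA (-0.36 ± 0.20, adjusted p = 0.178). Under PRMT1 siRNA it had 86.5 and 88.5 CPM with TGF-beta and 73.5 and 77 CPM without it (0.22 ± 0.19, adjusted p = 0.417). With both siRNAs it had 78.4 and 69.8 CPM with TGF-beta, against 84.5 and 71.6 CPM without it (-0.08 ± 0.19, adjusted p = 0.806). The groups overlapped with both siRNAs and did not with control or PRMT1 siRNA. With p53 siRNA Ddit3 had 46.1 and 80.7 CPM with TGF-beta, against 68.4 and 66.6 CPM without it (-0.09 ± 0.20, adjusted p = 0.733), again overlapping. The fit of 15 libraries called it lower with control siRNA (-0.37 ± 0.10) and with p53 siRNA (-0.55 ± 0.12).

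The ER genes had medians nearer to 0, and over the 4 responses some were called higher and some lower. Hspa5 (chr2:34771970-34777548, plus strand) had 1092 and 1094 CPM with TGF-beta, against 1027 and 973 CPM without it, with control siRNA (0.13 ± 0.09, adjusted p = 0.271). It had 900.4 and 933 CPM with TGF-beta and 942 and 984 CPM without it with PRMT1 siRNA (-0.07 ± 0.09, adjusted p = 0.553). Both siRNAs together gave 1003 and 950.1 CPM with TGF-beta, against 1049 and 1016 CPM without it (-0.08 ± 0.09, adjusted p = 0.525). The order of treated and untreated pairs thus differs between siRNAs, and none of the 3 passed the threshold. In cells with p53 siRNA it had 1059 and 1237 CPM with TGF-beta, against 818 and 864 CPM without it (0.45 ± 0.09, adjusted p = 0.00119; 0.33 ± 0.08 with 15 libraries). It was called higher in this response alone, where the untreated libraries were lower than those of the other siRNAs. Hsp90b1 was called higher with p53 siRNA too (0.27 ± 0.08), a call that the fit of 15 libraries did not make (0.18 ± 0.08, adjusted p = 0.0874). Calr and Pdia4, a protein disulfide isomerase, were called in none of the 4 responses with 16 libraries: the changes of Calr were -0.32 ± 0.14 with both siRNAs to 0.13 ± 0.14 with p53 siRNA (-0.19 ± 0.08 with 15 libraries), and those of Pdia4 -0.23 ± 0.09 with PRMT1 siRNA to 0.16 ± 0.09 with p53 siRNA (0.02 ± 0.07 with 15 libraries). With 15 libraries Calr was called lower with control siRNA (-0.23 ± 0.06) and both siRNAs (-0.32 ± 0.06), and Pdia4 with PRMT1 siRNA (-0.23 ± 0.05).

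Xbp1, the transcription factor of the IRE1 branch (chr11:5520659-5525894, plus strand), was the ER gene called higher in all 4 with all 16 libraries. It had 132 and 129.8 CPM with TGF-beta, against 100.5 and 97.8 CPM without it, with control siRNA (0.40 ± 0.10, adjusted p = 0.00576). It had 120.1 and 121 CPM with TGF-beta and 78.4 and 81.7 CPM without it with PRMT1 siRNA (0.59 ± 0.10, adjusted p = 0.000642). Under both siRNAs it had 116 and 113 CPM with TGF-beta, against 91.2 and 91.5 CPM without it (0.33 ± 0.10, adjusted p = 0.021). The gain was small in each and larger than the gap within a pair. Under p53 siRNA it had 136 and 175 CPM with TGF-beta, against 82.9 and 86.4 CPM without it (0.88 ± 0.10, adjusted p = 1.69e-05; 0.69 ± 0.06 with 15 libraries). The treated libraries lay above the untreated ones in each group. The Xbp1 call with both siRNAs was lost whichever library was left out (adjusted p up to 0.108), and that with control siRNA without replicate 2 of the untreated pair (0.37, adjusted p = 0.0601). Herpud1, a factor of ER-associated degradation, was called in 3 responses, up to 0.73 ± 0.10 with p53 siRNA (0.57 ± 0.09 with 15 libraries), and missed with both siRNAs (0.26 ± 0.10, adjusted p = 0.072). Sdf2l1, an HSPA5-associated cofactor, was lower with control siRNA, with a mean of 18 ± 0.460 CPM with TGF-beta, against 30.0 ± 3.53 CPM without it (SD; -0.74 ± 0.14, adjusted p = 0.00105). It was also lower with PRMT1 siRNA (-0.39 ± 0.13) and both siRNAs (-0.74 ± 0.13), and with p53 siRNA it changed by -0.22 ± 0.14 with 16 libraries and -0.47 ± 0.12 with 15, where it was called. Its call with PRMT1 siRNA was lost whichever library was left out (adjusted p up to 0.218) and with the replicate number as a block (adjusted p = 0.0649). Dnajb9, an HSP40 cochaperone and XBP1 target, was called lower with both siRNAs (-0.28 ± 0.08, adjusted p = 0.02) and in no other response, a call that held in 1 of 4 cases with a library left out (adjusted p up to 0.221).

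**Figure D2:**
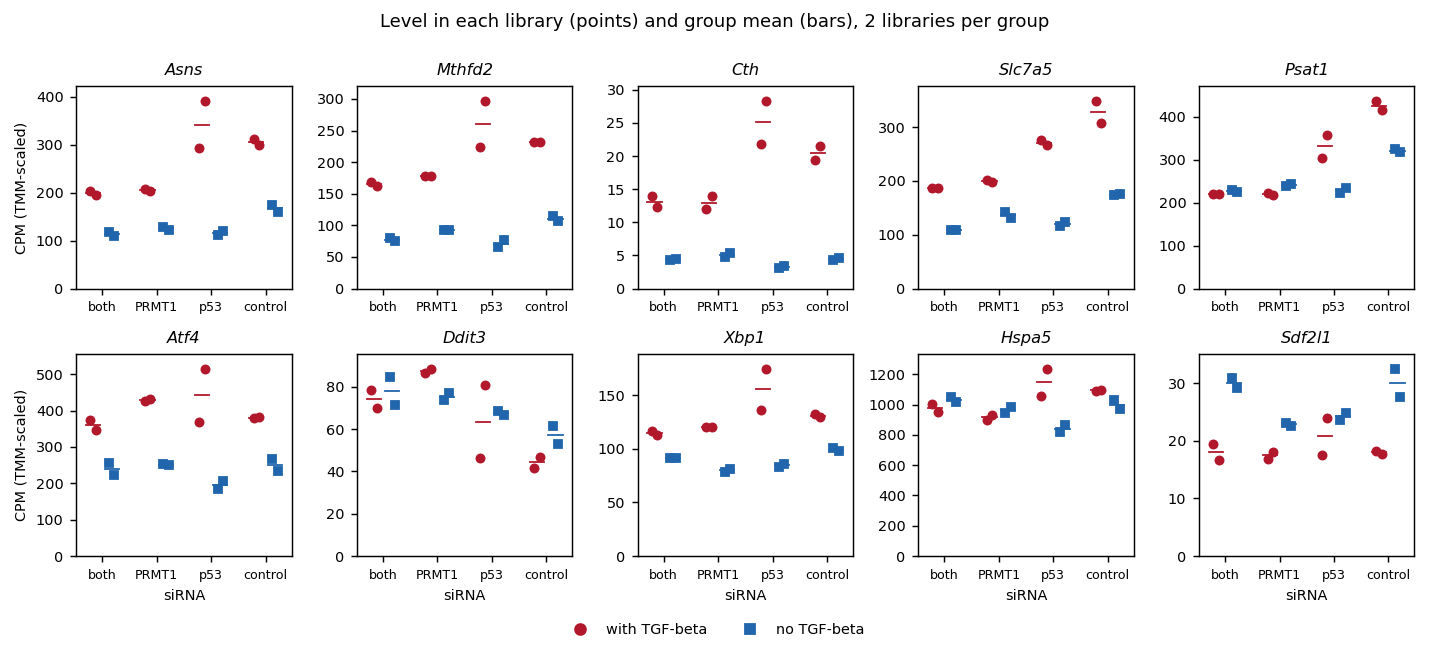
TMM-scaled CPM in each library (points, 2 per group) with the group mean (bar) for 10 of the 34 genes, with TGF-beta left of no TGF-beta for each siRNA. For Asns, Mthfd2, Cth, Slc7a5, Atf4 and Xbp1 the libraries with TGF-beta stand above the untreated ones of the same siRNA in all 4 siRNA groups; for Psat1, Ddit3, Hspa5 and Sdf2l1 they do not.

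Other genes of the same pathways were counted from lists drawn from general knowledge, to be read against the shares of all genes above. These lists, like the members, were chosen with earlier results of these data known, so they are no independent check. Of 20 other amino acid stress genes tested, 15 were higher and 0 lower with TGF-beta under control siRNA, 14 and 0 under PRMT1 siRNA, 17 and 0 under p53 siRNA (15 and 1 with 15 libraries) and 13 and 0 under both. Bcat1, a branched-chain amino acid transaminase, changed by 1.42 ± 0.08 with control siRNA and 1.10 ± 0.07 with PRMT1 siRNA, and Slc1a4, a neutral amino acid transporter, by 1.12 ± 0.07 and 0.89 ± 0.07. Of 16 other cytosolic aminoacyl-tRNA synthetases, 8 were higher and 1 lower under control siRNA, 7 and 0 under PRMT1 siRNA, 13 and 0 under p53 siRNA (also with 15 libraries) and 8 and 0 under both, with Tars, for threonine, at 0.84 ± 0.08 under control siRNA. Of 19 other ER folding and degradation genes, 5 were higher and 1 lower under control siRNA, 3 and 3 under PRMT1 siRNA, 10 and 1 under p53 siRNA (7 and 2 with 15 libraries) and 2 and 1 under both. Edem1, a degradation factor for misfolded glycoproteins, rose by 0.63 ± 0.08 under control siRNA. Of 8 stress sensors and eIF2 pathway genes, 3 were higher under control siRNA, 1 under PRMT1 siRNA, 3 under p53 siRNA and 2 under both, and 1 was lower under PRMT1 siRNA and 1 under p53 siRNA (4 higher and 1 lower with 15 libraries), with Eif2s1, the alpha subunit of eIF2, at 0.49 ± 0.09 under control siRNA. The fit of 15 libraries moved some of these counts by over 1.5 times: under PRMT1 siRNA it called 13 synthetases and 11 ER folding and degradation genes higher, under both siRNAs 5 of those ER genes higher and 5 lower, against 25.7% and 23.5% of all genes higher in that fit.

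PRMT1 siRNA lowered a minority of the genes; the siRNA comparisons use the same libraries as the TGF-beta responses. Without TGF-beta, 6 of 26 ATF4-type genes and 1 of 8 ER genes were lower than with control siRNA and 0 were higher, against 5.85% of all genes lower and 4.48% higher. The medians were -0.20, -0.27 and 0.01 for the ATF4-type genes, the ER genes and all genes. Aldh18a1 had 166 and 156 CPM with PRMT1 siRNA, against 206 and 202 CPM with control siRNA (-0.34 ± 0.06, adjusted p = 0.00631). Psat1, which makes phosphoserine, had 238 and 242 CPM with PRMT1 siRNA and 325 and 317 CPM with control siRNA (-0.42 ± 0.08, adjusted p = 0.00706). Slc7a5 had 143 and 131 CPM with PRMT1 siRNA, against 174 and 175 CPM with control siRNA (-0.35 ± 0.08, adjusted p = 0.014). These groups did not overlap. Asns stood at 129 and 123 CPM with PRMT1 siRNA and 175 and 160.5 CPM with control siRNA (-0.41 ± 0.11, adjusted p = 0.0438). Dnajb9, the ER gene called, stood at 21.2 and 22.1 CPM with PRMT1 siRNA, against 27.7 and 28.6 CPM with control siRNA (-0.38 ± 0.08, adjusted p = 0.0148). Pycr1 (-0.51 ± 0.13) and Mars (-0.36 ± 0.10) were the other genes called. Atf4 had 253 and 250.1 CPM with PRMT1 siRNA, within the range of 267 and 233 CPM with control siRNA (0.01 ± 0.14, adjusted p = 0.985). The count of 7 was 0 to 2 when any 1 of the 4 libraries was left out, and 20 in the fit of 15 libraries, which called 26.4% of all genes. Phgdh (-0.47 ± 0.08) and Calr (-0.27 ± 0.06) were among those it added.

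With TGF-beta, PRMT1 siRNA lowered 12 ATF4-type genes and 2 ER genes and raised 1 ATF4-type gene, Ddit3, against 6.53% of all genes lower and 9.13% higher. The medians were -0.33, -0.23 and 0.02 for the ATF4-type genes, the ER genes and all genes. Psat1 had 222 and 219 CPM with PRMT1 siRNA, against 436 and 416 CPM with control siRNA (-0.95 ± 0.08, adjusted p = 3.96e-05). Slc7a5 had 202 and 199 CPM with PRMT1 siRNA and 348 and 307 CPM with control siRNA (-0.71 ± 0.08, adjusted p = 0.000202). Slc7a11 had 30.8 and 29.5 CPM with PRMT1 siRNA, against 58.3 and 66.8 CPM with control siRNA (-1.05 ± 0.18, adjusted p = 0.00366). In each of these genes both PRMT1 siRNA libraries lay below the control pair. Aldh18a1 stood at 218 and 218 CPM with PRMT1 siRNA and 304 and 294 CPM with control siRNA (-0.45 ± 0.06, adjusted p = 0.00105). Vldlr stood at 43.9 and 44.7 CPM with PRMT1 siRNA, against 66.1 and 66.7 CPM with control siRNA (-0.58 ± 0.10, adjusted p = 0.00457). Vldlr and Aldh18a1 had nearly equal values in the partner libraries. Asns had 207 and 203 CPM with PRMT1 siRNA, against 312 and 299.8 CPM with control siRNA (-0.57 ± 0.11, adjusted p = 0.00758).

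Ddit3 went the other way, with 86.5 and 88.5 CPM with PRMT1 siRNA and TGF-beta, against 41.7 and 46.9 CPM with control siRNA and TGF-beta (0.98 ± 0.20, adjusted p = 0.00811), and without TGF-beta 73.5 and 77 CPM with PRMT1 siRNA, against 61.3 and 52.7 CPM with control siRNA (0.40 ± 0.20, adjusted p = 0.245). Atf4, which acts upstream of Ddit3, had 427 and 432 CPM with PRMT1 siRNA and TGF-beta, against 379 and 381 CPM with control siRNA and TGF-beta (0.18 ± 0.14, adjusted p = 0.371). Of the ER genes, Pdia4 had 206 and 222 CPM with PRMT1 siRNA and TGF-beta, against 296 and 300.0 CPM with control siRNA and TGF-beta (-0.48 ± 0.09, adjusted p = 0.00442), and Hsp90b1 changed by -0.40 ± 0.08. Both are abundant ER folding proteins. Hspa5 had 900.4 and 933 CPM with PRMT1 siRNA, against 1092 and 1094 CPM with control siRNA (-0.25 ± 0.09, adjusted p = 0.0653). Xbp1 had 120.1 and 121 CPM with PRMT1 siRNA, against 132 and 129.8 CPM with control siRNA (-0.12 ± 0.10, adjusted p = 0.384). Neither passed the threshold. The libraries of Hspa5 and Xbp1 did not overlap in this comparison. The other ATF4-type genes called lower were Cth (-0.65 ± 0.13), Mthfd2 (-0.38 ± 0.11), Slc7a1 (-0.61 ± 0.17), Gars (-0.41 ± 0.12), Mars (-0.35 ± 0.10) and Chac1 (-0.52 ± 0.13). The count of 15 was 6 to 8 when any 1 of the 4 libraries was left out, and 27 in the fit of 15 libraries, which called 41.4% of all genes. Psat1, Aldh18a1, Slc7a11, Slc7a5 and Vldlr kept their calls whichever library was left out, and the other 10, Ddit3 included, did not. Over all genes, the smooth log2 trend from transcripts of 1000 to 6000 bases was -0.21 and -0.20 in the PRMT1 siRNA libraries with TGF-beta. It was 0.27 and 0.24 in the control siRNA libraries with TGF-beta. Over the alternatives, changes were 0.68 to 1.07 for Ddit3 (969 bases), -0.61 to -0.34 for Vldlr (7971) and -1.15 to -0.77 for Slc7a11 (9223). The part of length in them was not tested.

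Of the 20 other amino acid stress genes, PRMT1 siRNA raised 2 and lowered 8 in the presence of TGF-beta, and raised 2 and lowered 4 in its absence. Gpt2, which makes alanine, changed by -0.70 ± 0.06 with TGF-beta, and Ppp1r15a, the eIF2 phosphatase subunit also called GADD34, by 0.91 ± 0.12 with TGF-beta and 0.54 ± 0.12 without it. With TGF-beta, Ppp1r15a and Ddit3 were thus higher while most called members were lower. Of the 16 other synthetases, 1 was higher and 6 lower with TGF-beta, and 0 and 2 without it. Of the 19 other ER folding and degradation genes, 0 were higher and 7 lower with TGF-beta, and 0 and 3 without it, among them Edem1 with TGF-beta (-0.45 ± 0.08) and Syvn1, the degradation ligase HRD1, without it (-0.35 ± 0.08). Of the 8 sensors, Eif2ak3, the ER stress kinase PERK, was lower with TGF-beta (-0.57 ± 0.11), as was Eif2ak2 (-0.72 ± 0.16), and none was called without it. With 15 libraries the counts of higher and lower genes with TGF-beta were 3 and 13 of the stress genes, 1 and 10 of the synthetases, 0 and 13 of the ER genes and 0 and 5 of the sensors, against 21.2% and 20.1% of all genes in that fit. Without TGF-beta they were 3 and 8, 0 and 7, 1 and 10, and 0 and 2, against 11% and 15.4% of all genes.

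p53 siRNA without TGF-beta lowered 5 of 26 ATF4-type genes and 0 of 8 ER genes and raised 0, against 1.29% of all genes lower and 1.17% higher. The medians were -0.35, -0.16 and 0.01. Slc7a5 had 116 and 123 CPM with p53 siRNA, against 174 and 175 CPM with control siRNA (-0.55 ± 0.08, adjusted p = 0.0039). Psat1 had 223 and 234 CPM with p53 siRNA and 325 and 317 CPM with control siRNA (-0.49 ± 0.08, adjusted p = 0.00986). Mthfd2 had 65.9 and 76.6 CPM with p53 siRNA, against 115 and 107 CPM with control siRNA (-0.64 ± 0.12, adjusted p = 0.0165). Serine synthesis, one-carbon transfer and amino acid import are each represented among these. Asns had 112 and 119 CPM with p53 siRNA, against 175 and 160.5 CPM with control siRNA (-0.54 ± 0.11, adjusted p = 0.035). Pycr1 had 14.4 and 17.2 CPM with p53 siRNA, against 24.3 and 21.9 CPM with control siRNA (-0.55 ± 0.13, adjusted p = 0.0476). All 5 had lower values in both p53 siRNA libraries. Atf4 had 184 and 205 CPM with p53 siRNA and 267 and 233 CPM with control siRNA, and missed the threshold (-0.36 ± 0.14, adjusted p = 0.238). Its libraries did not overlap, and 0 of the 8 stress regulators and effectors were called in this comparison. The chaperone and the 2 other stress factors were not called either. Hspa5 had 818 and 864 CPM with p53 siRNA, against 1027 and 973 CPM with control siRNA (-0.25 ± 0.09, adjusted p = 0.19). Xbp1 had 82.9 and 86.4 CPM with p53 siRNA, against 100.5 and 97.8 CPM with control siRNA (-0.23 ± 0.10, adjusted p = 0.31) and Ddit3 68.4 and 66.6 CPM with p53 siRNA, against 61.3 and 52.7 CPM with control siRNA (0.24 ± 0.20, adjusted p = 0.691). The count of 5 was 0 to 2 when any 1 of the 4 libraries was left out, and 23 in the fit of 15 libraries, which called 11.7% of all genes. Atf4 was among those it added (-0.38 ± 0.08). PRMT1 and p53 siRNA share the control libraries in these comparisons, so their lists of lower genes are not independent.

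With TGF-beta, p53 siRNA gave 1 call, a lower Psat1, against 2.39% of all genes lower and 2.82% higher. Psat1 had 304 and 358 CPM with p53 siRNA and TGF-beta, against 436 and 416 CPM with control siRNA and TGF-beta (-0.36 ± 0.08, adjusted p = 0.0256; -0.49 ± 0.06, adjusted p = 0.000528 with 15 libraries). Both p53 siRNA libraries lay below the control pair. The medians were 0.17, 0.15 and 0.03 with 16 libraries, and -0.05 for the ATF4-type genes and -0.04 for the ER genes with 15. For Asns, for example, the pair was 293 and 391 CPM with p53 siRNA and TGF-beta, on either side of 312 and 299.8 CPM with control siRNA and TGF-beta (0.16 ± 0.11, adjusted p = 0.342; -0.07 ± 0.08 with 15 libraries). The gap within the p53 siRNA pair was larger than the difference between the groups. Atf4 had 370.0 and 515 CPM with p53 siRNA, against 379 and 381 CPM with control siRNA (0.22 ± 0.14, adjusted p = 0.279; -0.04 ± 0.10 with 15 libraries). Ddit3 had 46.1 and 80.7 CPM with p53 siRNA, against 41.7 and 46.9 CPM with control siRNA (0.51 ± 0.20, adjusted p = 0.128; 0.05 ± 0.12 with 15 libraries). Xbp1 had 136 and 175 CPM with p53 siRNA, against 132 and 129.8 CPM with control siRNA (0.25 ± 0.10, adjusted p = 0.129; 0.05 ± 0.06 with 15 libraries). The groups overlapped for Asns, Atf4 and Ddit3 and not for Xbp1. When replicate 1 was left out of the p53 siRNA and TGF-beta pair, which leaves the library that stands apart, 27 members were called, and without either control siRNA library with TGF-beta none was.

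**Figure D3:**
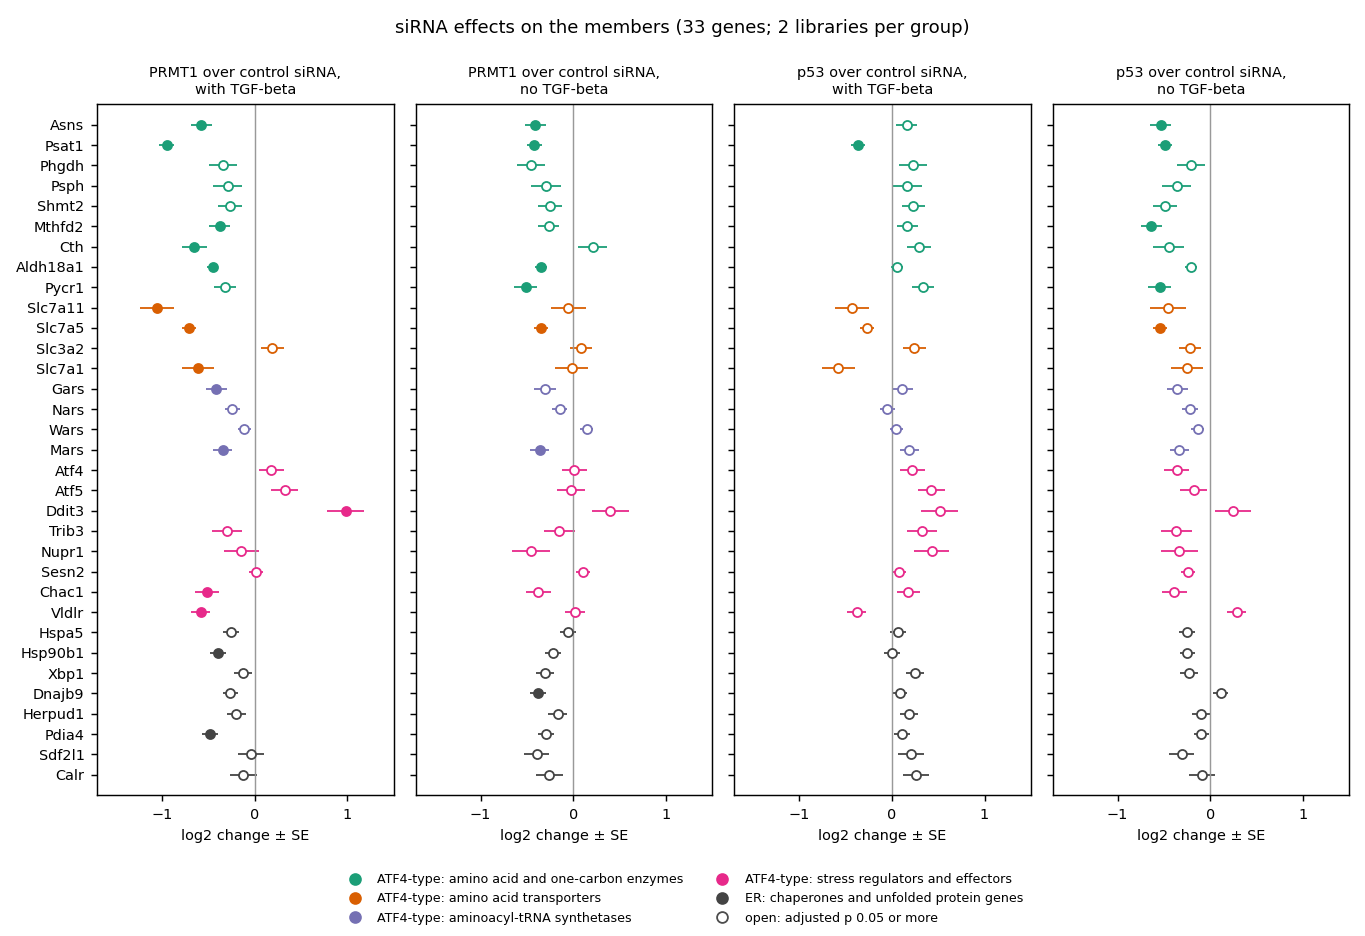
Log2 change with PRMT1 or p53 siRNA over control siRNA, with and without TGF-beta (points, bars are SE, 2 libraries per group), for 33 of the 34 genes. Filled points have an adjusted p under 0.05; most points in the PRMT1 siRNA panels and in the p53 siRNA panel without TGF-beta lie left of 0, and Ddit3 lies right of it in all 4 panels.

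The spread between the partners with p53 siRNA and TGF-beta followed transcript length. Of the 26 members with a longest transcript under 3400 bases, 25 were higher in replicate 2 than in replicate 1, with a median log2 difference of 0.418 (-0.14 to 0.81). Of the 7 longer members with counts in both libraries, 3 were higher, with a median of -0.0518 (-0.71 to 0.22). Ddit3, with a transcript of 969 bases, had 46.1 and 80.7 CPM, and Slc7a1, with 7179 bases, had 153 and 93.9 CPM in replicates 1 and 2. Over all genes the smooth trend of this library from 1000 to 6000 bases was -0.75 on the log2 scale, against -0.29 to 0.27 in the other 15 libraries. The values with 15 libraries are those without this library.

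**Figure D4:**
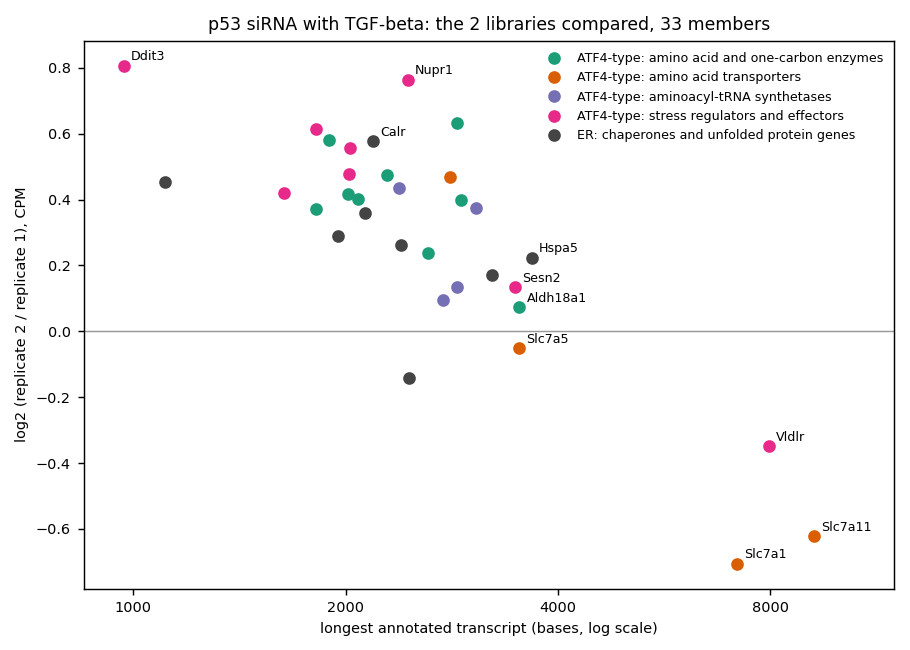
Log2 ratio of replicate 2 over replicate 1 of p53 siRNA with TGF-beta (vertical axis) against the longest annotated transcript in bases (horizontal axis, log scale) for 33 of the 34 genes, Cbs having 0 counts in both. Points under 3400 bases lie above 0 except 1, and the longest genes, Slc7a1, Slc7a11 and Vldlr, lie below it.

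PRMT1 siRNA on top of p53 siRNA gave few calls without TGF-beta. Trp53 was also higher with both siRNAs than with p53 siRNA alone (0.71 ± 0.09, adjusted p = 0.000962), as was Cdkn1a (2.02 ± 0.08). The groups thus differ in p53 RNA as well as in PRMT1 siRNA, and these cannot be told apart. Hspa5 was the 1 member called, with 1049 and 1016 CPM with both siRNAs, against 818 and 864 CPM with p53 siRNA alone (0.30 ± 0.09, adjusted p = 0.049); 5.51% of all genes were higher and 5.18% lower. The median was 0.02 for the ATF4-type genes and 0.07 for the ER genes. Atf4 had 255 and 224 CPM with both siRNAs and 184 and 205 CPM with p53 siRNA (0.30 ± 0.14, adjusted p = 0.198). The groups did not overlap. Asns had 119 and 109.7 CPM with both siRNAs, against 112 and 119 CPM with p53 siRNA. Xbp1 had 91.2 and 91.5 CPM with both siRNAs, against 82.9 and 86.4 CPM with p53 siRNA. Ddit3 had 84.5 and 71.6 CPM with both siRNAs, against 68.4 and 66.6 CPM with p53 siRNA. The Asns libraries overlapped, and Xbp1 and Ddit3 were higher in each library with both siRNAs without passing the threshold. The Hspa5 call was lost whichever of the 4 libraries was left out, and 9 members were called in the fit of 15 libraries, which called 30.9% of all genes.

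With TGF-beta, 15 of 26 ATF4-type genes and 4 of 8 ER genes were lower with both siRNAs than with p53 siRNA alone. None was higher, and of all genes 4.69% were lower and 5.46% higher. The medians were -0.54, -0.35 and -0.01. Trp53 was higher with both siRNAs here too (0.44 ± 0.09, adjusted p = 0.0148), as was Cdkn1a (adjusted p = 2.54e-05). The parts of PRMT1 siRNA and of p53 RNA in these calls thus cannot be told apart. Psat1 had 219 and 220.4 CPM with both siRNAs, against 304 and 358 CPM with p53 siRNA (-0.59 ± 0.08, adjusted p = 0.00117; -0.46 ± 0.06 with 15 libraries). Slc7a5 had 186 and 188 CPM with both siRNAs and 276 and 266 CPM with p53 siRNA (-0.54 ± 0.08, adjusted p = 0.00154; -0.56 ± 0.08 with 15 libraries). Cth had 13.9 and 12.3 CPM with both siRNAs, against 21.9 and 28.3 CPM with p53 siRNA (-0.93 ± 0.13, adjusted p = 0.00163; -0.73 ± 0.12 with 15 libraries). These 3 genes were lower with both siRNAs against either p53 siRNA library. Asns had 203 and 194 CPM with both siRNAs, against 293 and 391 CPM with p53 siRNA (-0.78 ± 0.11, adjusted p = 0.00193; -0.55 ± 0.08 with 15 libraries). Xbp1 had 116 and 113 CPM with both siRNAs, against 136 and 175 CPM with p53 siRNA (-0.44 ± 0.10, adjusted p = 0.0164; -0.24 ± 0.06 with 15 libraries). The size of both changes depends on the p53 siRNA library used. Atf4 had 375 and 346 CPM with both siRNAs, against 370.0 and 515 CPM with p53 siRNA. Hspa5 had 1003 and 950.1 CPM with both siRNAs, against 1059 and 1237 CPM with p53 siRNA (-0.23 ± 0.09, adjusted p = 0.107; -0.11 ± 0.08 with 15 libraries). Of these, the Atf4 libraries overlapped. Ddit3 had 78.4 and 69.8 CPM with both siRNAs, between the 46.1 and 80.7 CPM of the p53 siRNA pair. With 15 libraries, 15 ATF4-type genes and 2 ER genes were lower and 1, Ddit3, was higher (0.69 ± 0.12), against 4.69% of all genes lower and 6.41% higher in that fit. The medians in that fit were -0.34 and -0.16. Its p53 siRNA side is replicate 1 alone, with Ddit3 at 46.1 CPM. Leaving out replicate 1 from the p53 siRNA pair gave 30 called members, and without replicate 1 or 2 of both siRNAs with TGF-beta 6 or 4. Asns, Psat1, Cth and Slc7a5 kept their calls whichever library was left out.

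p53 siRNA on top of PRMT1 siRNA gave no call among the 34 genes, without TGF-beta (0.568% of all genes higher and 0.297% lower) or with it (0.219% and 0.232%). At an unadjusted p under 0.05, 6 and 2 members passed, as did 2382 and 1621 of all 15494 genes. DESeq2 called 2 and 1 members, against 537 and 222 genes in all. With p53 siRNA over control siRNA, Trp53 changed by -1.32 ± 0.09 without TGF-beta and -1.16 ± 0.09 with it. On top of PRMT1 siRNA its changes were -0.66 ± 0.09 and -1.075 ± 0.09. The part of this difference in the few calls was not tested. Without TGF-beta all 8 ER genes had a change above 0, from 0.10 to 0.39, as had 8064 of all 15494 genes. The ER median was 0.17, and 0.10 with 15 libraries and length offsets. Dnajb9 stood at 29.4 and 26.4 CPM with both siRNAs, against 21.2 and 22.1 CPM with PRMT1 siRNA (0.37 ± 0.08, adjusted p = 0.0689). Sdf2l1 stood at 31 and 29.1 CPM with both siRNAs, against 23.2 and 22.6 CPM with PRMT1 siRNA (0.39 ± 0.13, adjusted p = 0.195). None of the 4 transporters was called. Slc7a5 had 108 and 109 CPM with both siRNAs and 143 and 131 CPM with PRMT1 siRNA (-0.33 ± 0.08, adjusted p = 0.0693). Slc7a11 had 12.1 and 14.4 CPM with both siRNAs, against 21.3 and 19.2 CPM with PRMT1 siRNA (-0.62 ± 0.19, adjusted p = 0.173). These libraries did not overlap. The fit of 15 libraries called 10 members without TGF-beta, among them Dnajb9 (0.38 ± 0.07) and Slc7a5 (-0.32 ± 0.07), and 4 with it, against 21.6% and 12.2% of all genes. With TGF-beta, Atf4 had 375 and 346 CPM with both siRNAs, against 427 and 432 CPM with PRMT1 siRNA (-0.25 ± 0.14, adjusted p = 0.529). Vldlr had 56.6 and 60.7 CPM with both siRNAs, against 43.9 and 44.7 CPM with PRMT1 siRNA (0.41 ± 0.10, adjusted p = 0.165; 0.41 ± 0.06, adjusted p = 0.002 with 15 libraries).

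**Figure D5:**
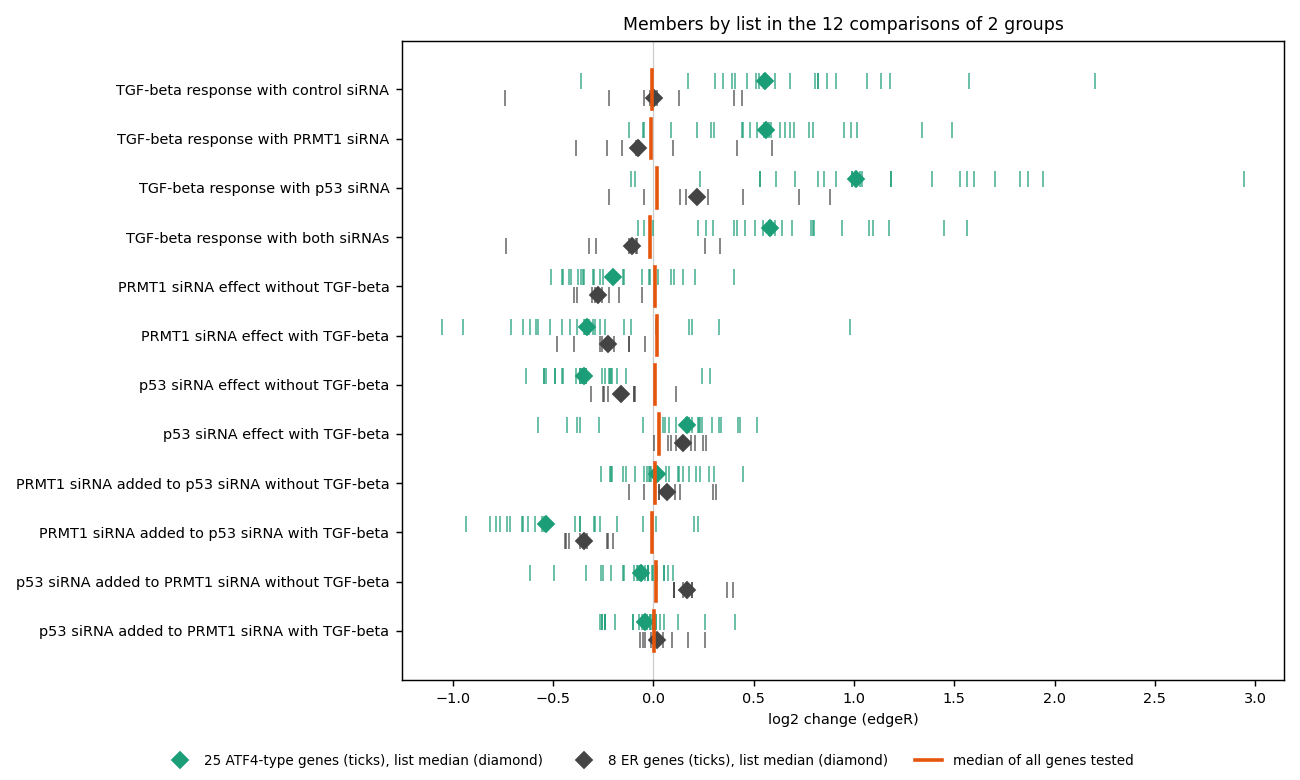
Log2 changes in edgeR of the single genes (ticks; 25 ATF4-type genes without Cbs above, 8 ER genes below), the medians of the 26 ATF4-type and 8 ER genes (diamonds) and the median of all genes tested (orange bar) in the 12 comparisons of 2 groups. The ATF4-type median lies right of the ER median and of all genes in the 4 TGF-beta responses, and left of all genes with PRMT1 siRNA, with p53 siRNA without TGF-beta and with PRMT1 siRNA added to p53 siRNA with TGF-beta.

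Differences between responses were tested as interactions. The TGF-beta response with PRMT1 siRNA differed from that with control siRNA for Psat1 alone (-0.53 ± 0.11, adjusted p = 0.0349), against 1.3% of all genes higher and 0.781% lower. It had 222 and 219 CPM with TGF-beta and 238 and 242 CPM without it with PRMT1 siRNA, and 436 and 416 CPM with TGF-beta and 325 and 317 CPM without it with control siRNA, so the libraries with TGF-beta were the higher ones with control siRNA and the lower ones with PRMT1 siRNA. Next came Cth (-0.86 ± 0.21, adjusted p = 0.06), Vldlr (-0.60 ± 0.15, adjusted p = 0.0617) and Slc7a11 (-0.998 ± 0.26, adjusted p = 0.0785), which missed the threshold; the fit of 15 libraries called 10 members, against 30.7% of all genes. The response with p53 siRNA was larger than with control siRNA for Mthfd2 (0.81 ± 0.16, adjusted p = 0.041; 0.60 ± 0.11 with 15 libraries) and Pycr1 (0.88 ± 0.17, adjusted p = 0.0381; 0.68 ± 0.13 with 15 libraries), against 0.452% of all genes higher and 0.568% lower. Both were called with 15 libraries too, and Asns came next (0.70 ± 0.16, adjusted p = 0.0738; 0.48 ± 0.10, adjusted p = 0.0228 with 15 libraries). The median over the 26 ATF4-type genes in this test was 0.47 with 16 libraries and 0.27 with 15.

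The effect of PRMT1 siRNA differed between cells with p53 siRNA and cells with control siRNA for Vldlr with TGF-beta (0.79 ± 0.15, adjusted p = 0.0378; 0.64 ± 0.10, adjusted p = 0.00695 with 15 libraries), against 0.452% of all genes higher and 0.31% lower. Vldlr had 56.6 and 60.7 CPM with both siRNAs and 57.1 and 44.8 CPM with p53 siRNA, all with TGF-beta. It had 43.9 and 44.7 CPM with PRMT1 siRNA and 66.1 and 66.7 CPM with control siRNA, also with TGF-beta. Trp53 stood at 60.8% of control with TGF-beta and 65.5% without it in cells with both siRNAs. With p53 siRNA alone it stood at 44.9% and 40.2%, so p53 RNA was not lowered equally in the groups compared. Without TGF-beta, edgeR called 0 of the 34 genes and 0% of all genes in either direction. At an unadjusted p under 0.05, 9 members and 1192 genes passed, and DESeq2 called 1 member and 49 genes. The lowest adjusted p among the members was that of Sdf2l1 (0.70 ± 0.19, adjusted p = 0.47). It had 31 and 29.1 CPM with both siRNAs, 23.2 and 22.6 CPM with PRMT1 siRNA, 23.6 and 24.8 CPM with p53 siRNA and 32.5 and 27.5 CPM with control siRNA. Psat1 came next (0.41 ± 0.11, adjusted p = 0.486). It had 229 and 226 CPM with both siRNAs, 238 and 242 CPM with PRMT1 siRNA, 223 and 234 CPM with p53 siRNA and 325 and 317 CPM with control siRNA. For Sdf2l1 each siRNA alone lay below the control pair and both together within its range, and for Psat1 all 3 siRNA groups lay below the control pair. The fit of 15 libraries called 13 members, all with a value above 0, against 5.64% of all genes higher and 3.6% lower. The Psat1 interaction call was lost whichever of its 8 libraries was left out, with changes of -0.56 to -0.50 and adjusted p of 0.0912 to 0.169. The calls of Mthfd2 (0.71 to 0.92), Pycr1 (0.77 to 1.02) and Vldlr (0.73 to 0.83) were lost without any 1 of the 6 compared libraries outside the pair with p53 siRNA and TGF-beta, and held without either library of that pair.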

How the data were processed

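RNA was measured by poly(A)-enriched sequencing of TRIzol RNA. The deposited values are estimated counts per gene, made by the authors with TopHat2, Partek and mm10, per the submitters' processing notes; versions, annotation and strand setting are not given in the sources used here. They were rounded to whole numbers (60% of nonzero values lay within 0.01 of one). Gene coordinates are those of the deposited table.

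edgeR 4.0.16 (R 4.3.3, limma 3.58.1) was used with TMM factors, its default filter on low counts, 1 mean per group over 16 libraries and the quasi-likelihood test, with Benjamini-Hochberg adjustment over 15494 genes. The SE is a Wald SE from the same fit. The method was also run on simulated counts, whose spread was smaller than the common coefficient of variation of 0.114 found here. Those counts held no library that stands apart and no length trend, so they do not show how the method handles either. Alternatives were DESeq2 1.42.0, RLE size factors, no filter, a replicate block, 15 libraries with and without offsets for transcript length (GENCODE vM21 longest transcript), and leaving out each library.

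The genes and lists were chosen with earlier results of these data known. All 34 genes may be named; values of single libraries are given for up to 6 with the lowest adjusted p in a comparison and for Atf4, Ddit3, Asns, Hspa5 and Xbp1, and from each wider list up to 4 genes with the lowest adjusted p are named. Cbs counts were added because of its zeros. Promoters are RefSeq entries of GRCm38.p6.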

Additional observations from a re-analysis of the deposited data

Results flagged for a closer look

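In 4 genes an effect differed between groups in a test of the difference itself (edgeR, adjusted over 15494 genes, n = 2 libraries per group). The Psat1 response to TGF-beta was -0.53 ± 0.11 (log2 ± SE, adjusted p = 0.0349) with PRMT1 siRNA relative to control siRNA. The response with p53 siRNA relative to control siRNA was 0.81 ± 0.16 for Mthfd2 (adjusted p = 0.041) and 0.88 ± 0.17 for Pycr1 (adjusted p = 0.0381). The PRMT1 siRNA effect with TGF-beta was 0.79 ± 0.15 for Vldlr (adjusted p = 0.0378) with p53 siRNA relative to control siRNA. With 15 libraries, without the p53 siRNA and TGF-beta library that stands apart, the last 3 values were 0.60 ± 0.11, 0.68 ± 0.13 and 0.64 ± 0.10. These values rest on replicate 1 alone in that group.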

How the results depend on the processing

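In the 4 TGF-beta responses the counts of members called (25, 22, 27 and 24 under control, PRMT1, p53 and both siRNAs) stayed within 1.5 times under every alternative run, and no called member changed direction under any. Of 150 called member results, 124 kept their call in every alternative other than leaving out a library, and 84 whichever library was left out; a library left alone in its group is assumed there to vary like the other groups. Counts of members called with 15 libraries and with 15 libraries and length offsets were 20 and 21 for PRMT1 siRNA when no TGF-beta was given (7 with 16 libraries), 27 and 31 with TGF-beta (15), 23 and 26 for the p53 siRNA effect without TGF-beta (5) and 9 and 9 for PRMT1 siRNA added to p53 siRNA without TGF-beta (1). They were 10 and 11 for p53 siRNA added to PRMT1 siRNA without TGF-beta (0) and 4 and 6 with it (0). The interactions gave 10 and 13 for PRMT1 siRNA by TGF-beta (1), 5 and 6 for p53 siRNA by TGF-beta (2), and for PRMT1 by p53 siRNA 13 and 10 without TGF-beta (0) and 2 and 3 with it (1). For the p53 siRNA effect with TGF-beta length offsets gave 3 (1). The 15-library fit tested 16103 genes, against 15494, and had a smaller common coefficient of variation, 0.0604 against 0.114, and more prior degrees of freedom, 6.64 against 3.41; the part of each was not tested.

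DESeq2 called 12 members for PRMT1 siRNA without TGF-beta, 10 and 4 for p53 siRNA without and with TGF-beta, 2 for PRMT1 siRNA added to p53 siRNA, and 2 and 1 for p53 siRNA added to PRMT1 siRNA without and with TGF-beta. Its interaction counts were 5 for PRMT1 siRNA by TGF-beta, 8 for p53 siRNA by TGF-beta, and 1 and 3 for PRMT1 by p53 siRNA without and with TGF-beta. With no filter on low counts the p53 siRNA effect with TGF-beta gave 7, PRMT1 siRNA added to p53 siRNA without TGF-beta 0, p53 siRNA added to PRMT1 siRNA 2 and 1, and the 4 interactions 6, 13, 1 and 7. RLE size factors gave 2 for PRMT1 siRNA added to p53 siRNA without TGF-beta. The cause of these moves was not tested.

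The labels do not say whether libraries with the same replicate number share more than that number. Over 28 pairs of groups the correlation of the difference between replicates 1 and 2 ran from -0.401 to 0.246, with 6 over 0.1. With the replicate number as a block, members called were 3 for p53 siRNA without TGF-beta, 0 for PRMT1 siRNA added to p53 siRNA without TGF-beta, and 0 for the interactions of PRMT1 siRNA by TGF-beta, p53 siRNA by TGF-beta and PRMT1 by p53 siRNA with TGF-beta; the block left the other counts of members within 1.5 times.

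Leaving out each library in turn gave 20 to 23, 16 to 18, 25 to 30 and 16 to 17 members called in the TGF-beta responses with control, PRMT1, p53 and both siRNAs. It gave 0 to 2 and 6 to 8 for PRMT1 siRNA without and with TGF-beta, and 0 to 2 and 0 to 27 for p53 siRNA. For PRMT1 siRNA added to p53 siRNA it gave 0 to 0 and 4 to 30, for p53 siRNA added to PRMT1 siRNA 0 to 0 without and 0 to 0 with TGF-beta, and for the interactions 0 to 0 (PRMT1 siRNA by TGF-beta), 0 to 30 (p53 siRNA by TGF-beta), and 0 to 0 and 0 to 24 (PRMT1 by p53 siRNA without and with TGF-beta). The counts of 27, 30, 30 and 24 all came with replicate 1 left out of the p53 siRNA and TGF-beta pair, which leaves the library that stands apart; with replicate 2 left out these comparisons gave 1, 18, 5 and 2.

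Counts over all genes moved by more than 1.5 times more often. With 15 libraries, and with length offsets added, they were 8150 and 8415 for the TGF-beta response under PRMT1 siRNA (5035 with 16 libraries), 7639 and 8013 under both siRNAs (4851), 4259 and 5040 for PRMT1 siRNA without TGF-beta (1601), 6659 and 6176 with it (2427), 1877 and 2665 for p53 siRNA without TGF-beta (382), 4981 and 5162 for PRMT1 siRNA added to p53 siRNA (1656), 3482 and 3062 for p53 siRNA added to PRMT1 siRNA (134) and 1962 and 1925 for the same with TGF-beta (70). For the interactions they were 4936 and 3885 (PRMT1 siRNA by TGF-beta, 322), 361 and 699 (p53 siRNA by TGF-beta, 158), 1487 and 1066 (PRMT1 by p53 siRNA, 0) and 372 and 602 (with TGF-beta, 118). Length offsets gave 1229 for p53 siRNA with TGF-beta (808) and 2706 for PRMT1 siRNA added to p53 siRNA with TGF-beta (1573). No filter gave 3882 for PRMT1 siRNA with TGF-beta, 609 and 3301 for p53 siRNA without and with TGF-beta, 2908 for PRMT1 siRNA added to p53 siRNA with TGF-beta, 1156 and 586 for p53 siRNA added to PRMT1 siRNA, and 2128, 1952, 461 and 3175 for the 4 interactions. DESeq2 gave 639 and 1482 for p53 siRNA, 537 and 222 for p53 siRNA added to PRMT1 siRNA, and 807, 489, 49 and 953 for the interactions. The block gave 60 and 36 for p53 siRNA added to PRMT1 siRNA, and 104, 1 and 75 for the last 3 interactions.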
